A study of Mus musculus with 6 samples.

Results

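ERV1 retroelements are the class of mouse endogenous retroviruses that are related to murine leukemia virus, and reads of these elements were taken from messenger RNA of sorted Mvt1 cells. Every mapped read whose annotation named an LTR element of the ERV1 family was a member, whatever its level. The members were 442925 reads of 76022 distinct sequences, under 103 of the 16023 annotation names in the libraries. They lay in 4936 of the 135264 windows of 10 kb that held a mapped read. Of the names, 26 were internal parts, the stretch between the 2 long terminal repeats (LTRs), and 77 were LTRs.

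The Mvt1 line was derived from mammary carcinoma cells of FVB/N mice. It was stained for CD24, an anchored cell surface protein, and sorted by flow cytometry into CD24- and CD24+ cells, which were grown without any treatment. Messenger RNA of 3 plates of each group was sequenced, with 9046025 to 25692147 mapped reads in a library. Both groups come from 1 line, so the plates measure the spread within a sorted group, and the sort on CD24 cannot be told apart from other differences that arose between the sorted groups. Plates of 1 group may be technical replicates, since no independent sorts are described, and every p-value refers to the spread between plates.

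An endogenous retrovirus is a germ-line copy of a retrovirus, with an LTR at each end. The 5′ LTR holds the promoter and the 3′ LTR the polyadenylation signal, and the internal part lies between them. VL30 elements are ERV1 retroelements that are present in many copies in the mouse genome, code for no complete set of viral proteins, and are known for RNA that can be packaged into particles of murine leukemia virus. In the annotation used here, MMVL30-int and RLTR6-int name internal parts of the VL30 kind and RLTR6_Mm their LTR. RLTR4_MM-int and MuLV-int name internal parts of elements related to murine leukemia virus, and RLTR4_Mm is the LTR of the former. In many cell types such elements are kept silent by histone H3 methylation at lysine residues, DNA methylation and the KAP1 corepressor.

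The following reads show what was counted. They are the most read sequences of MMVL30-int, the name with the largest difference reported below, each with the place it was given in mm9 and the strand of the match.
MMVL30-int, chr13:66487970-66488016, minus strand: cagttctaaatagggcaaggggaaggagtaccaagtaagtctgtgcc
MMVL30-int, chr12:19124156-19124202, minus strand: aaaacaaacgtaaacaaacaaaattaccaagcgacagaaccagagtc
MMVL30-int, chr1:25075077-25075123, minus strand: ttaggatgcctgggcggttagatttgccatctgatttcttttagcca

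The most read sequences of its LTR, RLTR6_Mm, are shown next, because the LTR holds the signals for the start and the end of the transcript. Capitals mark AATAAA, the letters of the polyadenylation signal.
RLTR6_Mm, chr10:47176379-47176425, minus strand: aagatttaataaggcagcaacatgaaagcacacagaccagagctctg
RLTR6_Mm, chr13:55286168-55286214, minus strand: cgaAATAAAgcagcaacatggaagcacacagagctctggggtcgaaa
RLTR6_Mm, chr10:47360333-47360379, minus strand: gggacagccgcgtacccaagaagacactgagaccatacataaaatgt

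AATAAA or its reverse complement TTTATT was found in 12.7% of the 3116 distinct RLTR6_Mm sequences. It was in 5.16% of the 14039 distinct MMVL30-int sequences and in 5.74% of the 24784 distinct sequences of all other ERV1 LTR names. TATAAA or TTTATA was in 0.160% of the RLTR6_Mm sequences, in 3.58% of those of MMVL30-int and in 4.27% of those of the other LTR names. TGACTCA or TGAGTCA, the letters bound by AP-1, was in 0 of the RLTR6_Mm sequences, in 0.0784% of those of MMVL30-int and in 1.26% of those of the other LTR names. Overlapping reads share letters, so these shares describe the reads and not a number of sites.

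ERV1 reads made up 0.793%, 0.719% and 0.621% of the mapped reads in CD24- replicates 1, 2 and 3. They made up 0.224%, 0.289% and 0.284% in CD24+ replicates 1, 2 and 3. The groups did not overlap, and the mean ± SD over 3 libraries was 0.711% ± 0.0866 in CD24- and 0.266% ± 0.0365 in CD24+ cells (values after ± are SDs over the 3 libraries of a group throughout). A two-sided exact permutation test gave p = 0.1, the smallest that 3 libraries against 3 can give. In bulk RNA, fewer cells with ERV1 RNA and less of it in each cell cannot be told apart.

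Most of the difference lay in VL30. The 3 VL30 names held 0.374% ± 0.0598 of the mapped reads in CD24- libraries and 0.0449% ± 0.00346 in CD24+ libraries. As a share of all ERV1 reads they fell from between 50.9% and 54.9% in CD24- libraries to between 15.8% and 18.6% in CD24+ libraries. The murine leukemia virus-like names RLTR4_MM-int, RLTR4_Mm and MuLV-int held 0.274% ± 0.0301 of the mapped reads in CD24- libraries and 0.163% ± 0.0279 in CD24+ libraries (exact permutation p = 0.1 for each of these shares). All other ERV1 names together held 0.0635% ± 0.00300 and 0.0572% ± 0.00561, and here the groups overlapped (exact permutation p = 0.3).

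MMVL30-int, the internal part of VL30, had the largest decrease of the named ERV1 elements. It had 3582, 2999 and 2581 reads per 1000000 mapped reads (CPM) in CD24- replicates 1, 2 and 3, and 262, 328 and 290 CPM in CD24+ replicates 1, 2 and 3. The lowest CD24- library was far above the highest CD24+ library. The CD24+ mean was 9.60% of the CD24- mean, a log2 fold-change of -3.38 (standard error, SE, 0.14, edgeR adjusted p = 8.34e-08, Benjamini-Hochberg over all 11868 annotation names tested). With each distinct sequence counted once in a library the log2 fold-change was -1.52, and the call held.

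RLTR6_Mm, the LTR that flanks MMVL30-int, had 532, 480 and 376 CPM in the CD24- libraries and 58.6, 59.9 and 57.6 CPM in the CD24+ libraries. Its log2 fold-change was -2.98 (SE 0.13, edgeR adjusted p = 8.34e-08). With each distinct sequence counted once it was -1.27. RLTR6-int, the second VL30 internal name, had 239, 221 and 201 CPM against 95.3, 96.7 and 99.6 CPM, a smaller log2 fold-change of -1.18 (SE 0.09, edgeR adjusted p = 2.50e-06). The groups did not overlap for either name, and the call for RLTR6-int was lost when each distinct sequence was counted once (log2 fold-change -0.09).

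The ratio of LTR reads to internal reads was higher in every CD24+ library. There were 0.151 ± 0.00768 reads of RLTR6_Mm for each read of MMVL30-int in CD24- cells and 0.202 ± 0.0209 in CD24+ cells, a difference of 0.41 on the log2 scale with no overlap between the groups (exact permutation p = 0.1). The difference was 0.26 with each distinct sequence counted once. For RLTR6-int, the ratio to MMVL30-int was 0.0727 ± 0.00571 in CD24- and 0.334 ± 0.0356 in CD24+ cells, a difference of 2.20 on the log2 scale (exact permutation p = 0.1). The window on chromosome 11 from 86020000 held 54.5% of the RLTR6-int reads in CD24+ libraries, and without its reads this ratio was 0.0608 ± 0.00260 and 0.151 ± 0.0160, a difference of 1.31 on the log2 scale (exact permutation p = 0.1, computed after the values were seen). RLTR4_MM-int had 0.752 ± 0.0645 reads for each MMVL30-int read in CD24- cells and 4.54 ± 0.497 in CD24+ cells (exact permutation p = 0.1).

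The murine leukemia virus-like elements were lower in CD24+ cells by less. RLTR4_MM-int, their main internal part, had 2436, 2415 and 1987 CPM in the CD24- libraries and 1062, 1485 and 1465 CPM in the CD24+ libraries, which did not overlap. Its log2 fold-change was -0.77 (SE 0.14, edgeR adjusted p = 0.00134). RLTR4_Mm, the LTR, had 445, 421 and 355 CPM against 217, 275 and 278 CPM, a log2 fold-change of -0.66 (SE 0.12, edgeR adjusted p = 0.00118). MuLV-int had 51.2 ± 2.17 CPM and 40.9 ± 5.81 CPM, a log2 fold-change of -0.31 (SE 0.11, edgeR adjusted p = 0.0386). The calls for RLTR4_MM-int and RLTR4_Mm were lost with each distinct sequence counted once (log2 fold-change -0.14 and -0.06). The call for MuLV-int was lost with the replicate number as a block and without CD24- replicate 1, CD24- replicate 2, CD24+ replicate 1 or CD24+ replicate 3, and with each distinct sequence counted once its log2 fold-change was 0.21 (edgeR adjusted p = 0.130). Outside its window on chromosome 13 from 67990000, MuLV-int had 32.5 ± 1.84 and 28.7 ± 3.67 CPM, and the groups overlapped.

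**Figure D1:**
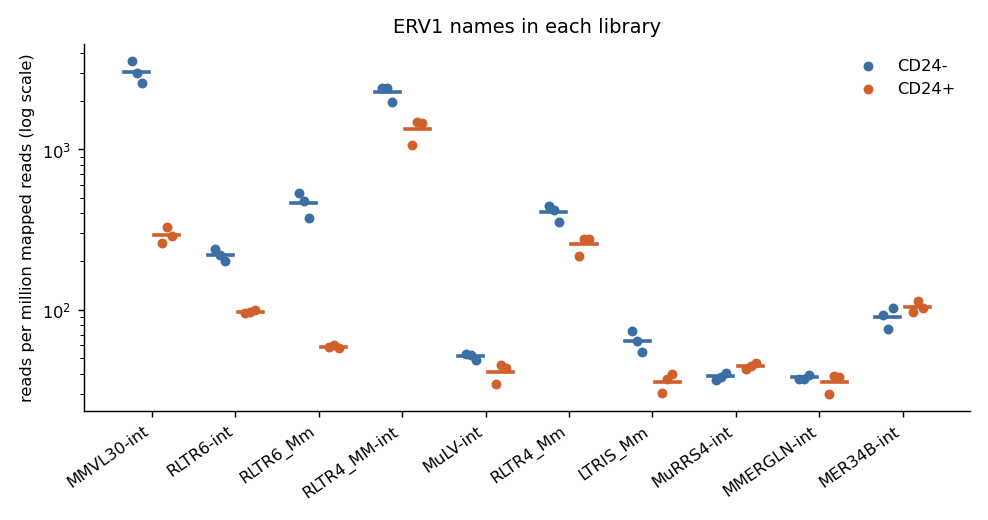
CPM (log axis) of 10 ERV1 names in the 3 CD24- (blue) and 3 CD24+ (orange) libraries, with a bar at each mean. MMVL30-int and RLTR6_Mm lie furthest apart between the groups, RLTR4_MM-int and RLTR4_Mm less, and MER34B-int overlaps.

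Of the 103 ERV1 names, 62 had enough reads to be tested, and 41 names with 1 to 76 reads over all libraries did not pass the filter on low counts. In the edgeR fit 2 of the 62 names rose and 12 fell in CD24+ cells, 22.6% of those tested, while 44.3% of all annotation names were called in either direction, 20.8% higher and 23.6% lower. The median log2 fold-change of the 62 names was -0.26, beside -0.03 over all names tested. Of 14 tested internal parts 1 rose and 4 fell, and of 48 tested LTRs 1 rose and 8 fell. Apart from the VL30, RLTR4 and MuLV names, 2 of 56 rose and 6 fell, 14.3%. Without CD24- replicate 2, 9 ERV1 names were called instead of 14, and with each distinct sequence counted once 5 of 63 tested were called, 2 higher and 3 lower, beside 30.9% of all names in that fit, 18.9% higher and 12% lower.

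The LTRs called lower included LTRIS_Mm, the LTR of elements of the MuRRS kind, a murine retrovirus-related family. It had 73.5, 64.0 and 54.5 CPM in CD24- libraries and 30.3, 37.0 and 39.5 CPM in CD24+ libraries, a log2 fold-change of -0.84 (SE 0.13, edgeR adjusted p = 0.000485). RMER5 had 52.9 ± 1.88 CPM and 35.4 ± 4.83 CPM, with a log2 fold-change of -0.57 (edgeR adjusted p = 0.00169). The window on chromosome 7 from 150790000, in the gene Tnfrsf26, held 59.5% of this difference, and outside it RMER5 had 35.7 ± 0.766 and 28.6 ± 6.01 CPM, a log2 ratio of the means of -0.32. LTRIS3, RLTR1, LTR45 and MER57F, with means of 5.80 CPM or less in each group, were also lower, and their log2 fold-changes lay between -1.49 for MER57F and -0.48 for LTR45. For LTRIS3 and MER57F 1 window each held 78.5% and 73.1% of the difference, and outside it the log2 ratios of the means were -0.38 and -0.72, with groups that overlapped for MER57F. For LTR45 1 window held 93.7% of the difference, and outside it LTR45 had 0.124 ± 0.0755 and 0.0136 ± 0.0236 CPM. The 1 tested window led by LTR45 had a log2 fold-change of -0.45 and did not pass. The call for LTRIS3 was lost without CD24- replicate 2 and that for MER57F without CD24+ replicate 3. RLTR1 was not called with DESeq2, with the replicate number as a block, or without CD24- replicate 1, CD24- replicate 2, CD24+ replicate 1 or CD24+ replicate 2. LTR45 was not called in any of these fits, nor without CD24- replicate 3 or CD24+ replicate 3, with TMM scaling or without the filter on low counts. Counting each distinct sequence once ended the calls for LTRIS_Mm, RMER5, LTRIS3, RLTR1 and LTR45.

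LTR9 and MURVY-int were the names called higher. LTR9 had 0.0780, 0.211 and 0.166 CPM in CD24- libraries and 1.77, 1.71 and 1.28 CPM in CD24+ libraries, a log2 fold-change of 3.28 (SE 0.42, edgeR adjusted p = 0.000140) on 97 reads in all. MURVY-int, the internal part of an element first known from copies on the Y chromosome, had 1.48, 1.62 and 1.99 CPM against 2.54, 2.28 and 3.74 CPM (log2 fold-change 0.78, edgeR adjusted p = 0.0385). Each rise lay mainly in 1 window, a split made after the values were seen. The LTR9 window on chromosome 15 from 84100000 held 98.5% of the difference between the group means, and outside it LTR9 had at most 0.111 CPM in any library. Outside the window on chromosome 2 from 27350000, MURVY-int had 1.40, 1.55 and 1.82 CPM in CD24- libraries and 1.22, 1.39 and 2.06 CPM in CD24+ libraries, so that the groups overlapped. The MURVY-int call was lost with DESeq2, with the replicate number as a block, and without CD24- replicate 1, CD24- replicate 2, CD24+ replicate 1 or CD24+ replicate 3.

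Other internal parts did not pass the test. MER34B-int, an old ERV1 internal part, had 92.7, 76.2 and 102 CPM in CD24- libraries and 96.5, 113 and 103 CPM in CD24+ libraries, so that the groups overlapped (log2 fold-change 0.21, edgeR adjusted p = 0.157). It passed without CD24- replicate 3 (log2 fold-change 0.31, edgeR adjusted p = 0.0442). MuRRS4-int had 38.4 ± 1.80 CPM and 44.5 ± 1.73 CPM (log2 fold-change 0.22, edgeR adjusted p = 0.0628). It passed with TMM scaling, with scaling to annotated reads, and without CD24- replicate 3 or CD24+ replicate 1. MMERGLN-int had 37.8 ± 1.09 CPM and 35.3 ± 4.96 CPM, with a log2 fold-change of -0.09 (SE 0.11). RLTR1B, LTRIS2 and MURVY-LTR, LTRs of the named families, had log2 fold-changes of -0.30, 0.12 and -0.27 and did not pass, and MuRRS-int had 0.14.

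**Figure D2:**
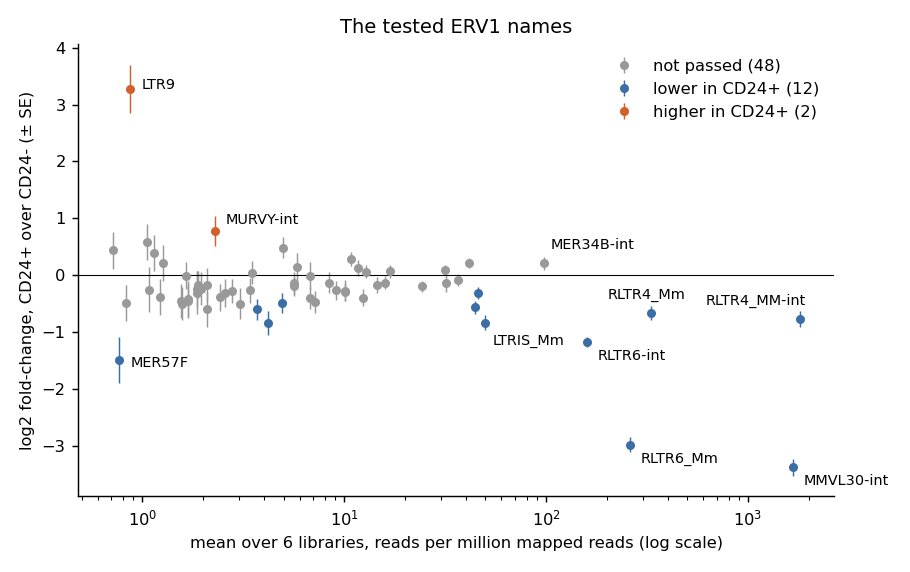
Log2 fold-change of CD24+ over CD24- cells (± SE) against the mean CPM over the 6 libraries (log axis) for the 62 tested ERV1 names. The 12 names called lower (blue) include MMVL30-int and RLTR6_Mm at -3.38 and -2.98, and LTR9 stands at 3.28 among names of few reads.

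Each read sequence has 1 location in the deposited data, also where an element has many alike copies, so a window is the place a read was given and not always the copy it came from. Of the MMVL30-int reads 91.9% were placed on chromosomes 1 and 10 to 19, of the RLTR6_Mm reads 88.2% and of the RLTR4_MM-int reads 98.5%. For reads annotated to genes this share was 48.0%, and for the other ERV1 names 57.5%. The match was on the minus strand for 84.6% of MMVL30-int reads and 50.4% of gene reads, although the library kit marks no strand. Whether the location given to a read bears on the window results was not tested. Sums per name do not use the window, but the annotation of a read was taken from the genome where it mapped. A read shared by copies of different names is therefore counted under 1 name.

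Of the ERV1 windows, 300 had enough reads to be tested, and 26 of them rose and 156 fell in CD24+ cells. That is 60.7% of the windows tested, beside 32.6% of all windows by annotation class in the same edgeR fit, where 13.7% rose and 18.9% fell. With each distinct sequence counted once, 32 rose and 91 fell of 261 ERV1 windows tested, beside 22.4% of all windows in that fit, 12.7% higher and 9.67% lower. A window with enough reads in 1 group alone passes the filter on low counts, so the counts and medians given here hold for tested windows. VL30 names led 118 of the 300 windows, that is, held the most ERV1 reads there. Of these, 107 fell, 3 rose and 8 did not pass, with a median log2 fold-change of -3.08. The lower and upper quartiles of these windows were -3.45 and -2.57, and 100 of them fell by at least 2 on the log2 scale. RLTR4 or MuLV names led 68 windows, of which 23 fell, 13 rose and 32 did not pass, with a median of -0.11. Of the 114 windows led by any other ERV1 name, 26 fell, 10 rose and 78 did not pass, with a median of -0.30. Over all windows tested the median was -0.07.

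The most read VL30 window lay on chromosome 11 from 86620000 to 86629999 of mm9, where other reads were annotated to Dhx40, an RNA helicase gene. It had 1319, 1090 and 984 CPM of ERV1 reads in the CD24- libraries and 57.9, 89.4 and 62.0 CPM in the CD24+ libraries. Its log2 fold-change was -4.01 (SE 0.16, edgeR adjusted p = 6.78e-11). The window on chromosome 1 from 25070000 to 25079999, also led by MMVL30-int, had 224 ± 37.9 CPM and 19.8 ± 3.66 CPM (log2 fold-change -3.48). The further MMVL30-int windows among the 10 most read lay on chromosome 13 from 55280000, chromosome 12 from 60320000 and chromosome 2 from 75470000, with log2 fold-changes of -3.44, -3.28 and -3.05. None of these windows overlapped between the groups.

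Among called windows with a mean of at least 1 CPM, the largest decrease was that of an RLTR6_Mm window on chromosome 13 from 94530000. It had 22.5, 28.6 and 15.7 CPM in the CD24- libraries and 0.995, 1.06 and 1.25 CPM in the CD24+ libraries, a log2 fold-change of -4.30 (SE 0.23, edgeR adjusted p = 1.56e-09). An MMVL30-int window on chromosome 17 from 43030000 fell by 4.02 on the log2 scale, from 20.2 ± 2.71 CPM to 1.07 ± 0.681 CPM. An RLTR6_Mm window on chromosome 10 from 55620000 fell by 4.02, on a CD24- mean of 8.48 CPM. An MMVL30-int window on chromosome X from 144800000 had 35, 45 and 26 reads in the CD24- libraries and 0, 2 and 6 reads in the CD24+ libraries. Its log2 fold-change rests on these few reads and was -4.26, -5.32 without CD24+ replicate 3 and -3.92 without CD24+ replicate 2.

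**Figure D3:**
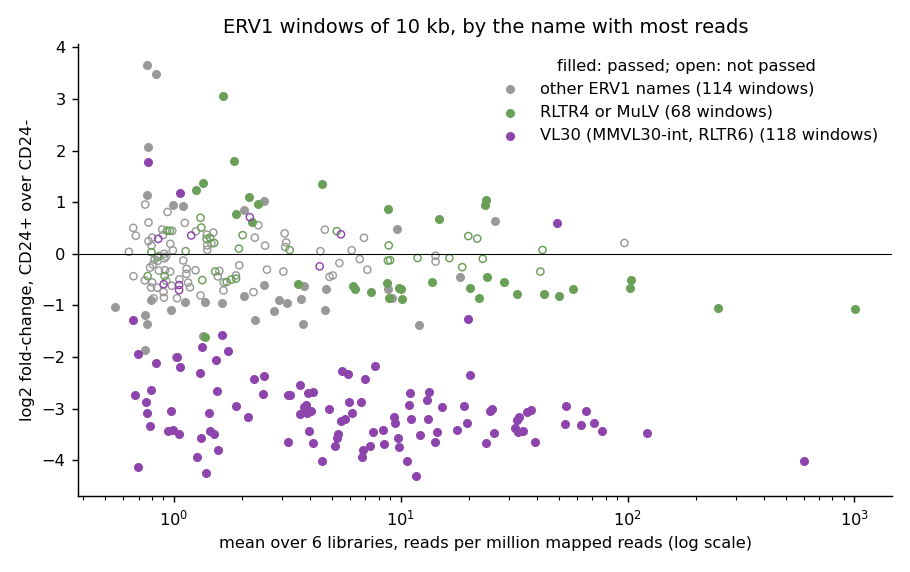
Log2 fold-change of CD24+ over CD24- cells against the mean CPM over the 6 libraries (log axis) for the 300 tested ERV1 windows of 10 kb, coloured by the ERV1 name that held most reads. Windows led by VL30 names lie around their median of -3.08, and those led by RLTR4 or MuLV names on both sides of 0.

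A few VL30 windows did not follow the others. The window on chromosome 11 from 86020000 to 86029999, led by RLTR6-int, had 34.5, 39.6 and 42.6 CPM in CD24- libraries and 64.3, 56.6 and 56.0 CPM in CD24+ libraries. It rose by 0.60 on the log2 scale (SE 0.11, edgeR adjusted p = 0.000399), and 99.8% of its ERV1 reads matched a transcript of Brip1os, a long noncoding RNA gene, in GENCODE M21. It held 16.3% ± 3.07 of all RLTR6-int reads in CD24- libraries and 54.5% ± 5.56 in CD24+ libraries. Outside it, RLTR6-int had 207, 184 and 162 CPM in CD24- libraries and 37.3, 46.4 and 49.2 CPM in CD24+ libraries, a log2 ratio of the means of -2.06 instead of the -1.18 of all its reads. The other VL30 windows that rose adjoin each other on chromosome 10, from 41510000 and from 41520000, and were led by RLTR6-int. They had log2 fold-changes of 1.78 and 1.18 on 86 and 111 reads in all. An RLTR6-int window on chromosome 12 from 117640000 had 4.74 CPM in CD24- and 6.17 CPM in CD24+ libraries, a log2 fold-change of 0.38 that did not pass. Of its reads 99.6% matched a transcript of D430020J02Rik. Such matches were also found where VL30 fell. At least 80% of the reads matched transcripts of 1 gene in 17 of the 107 VL30 windows that fell, 1 of the 3 that rose and 2 of the 8 that did not pass.

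The most read window took a smaller share of VL30 in CD24+ cells. The window on chromosome 11 from 86620000 held 33.2%, 32.9% and 34.5% of the MMVL30-int reads in the CD24- libraries and 20.4%, 24.6% and 19.7% in the CD24+ libraries (exact permutation p = 0.1). For RLTR6_Mm its share was 23.7% ± 1.89 and 10.2% ± 3.73 (exact permutation p = 0.1). Outside this window MMVL30-int had 2393, 2012 and 1692 CPM in the CD24- libraries and 208, 247 and 233 CPM in the CD24+ libraries, and its log2 fold-change was -3.15 (edgeR adjusted p = 1.04e-07).

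RLTR4 reads were placed mainly at 1 element. The windows on chromosome 11 from 5900000 and from 5910000, which both hold parts of it, had 1367 ± 177 and 338 ± 48.3 CPM in CD24- and 654 ± 102 and 163 ± 23.7 CPM in CD24+ cells. Their log2 fold-changes were -1.06 and -1.05 (edgeR adjusted p = 6.13e-06 and 7.49e-06). The first held 46.6% ± 0.908 of the RLTR4_MM-int reads in CD24- libraries and 37.7% ± 0.617 in CD24+ libraries, and 74.4% ± 1.52 and 58.7% ± 0.485 of the RLTR4_Mm reads (exact permutation p = 0.1 for each). The RLTR4_MM-int windows on chromosome 10 from 4620000 and chromosome 11 from 60390000, also among the 10 most read, had log2 fold-changes of -0.50 and -0.67 (edgeR adjusted p = 0.00850 and 0.000880). Both calls were lost with each distinct sequence counted once (-0.03 and -0.23). Outside the window from 5900000, RLTR4_Mm had 104 ± 6.55 CPM in CD24- and 106 ± 15.2 CPM in CD24+ cells, and the groups overlapped. Without the most read windows RLTR4_MM-int had a log2 fold-change of -0.39 (edgeR adjusted p = 0.0409).

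**Figure D4:**
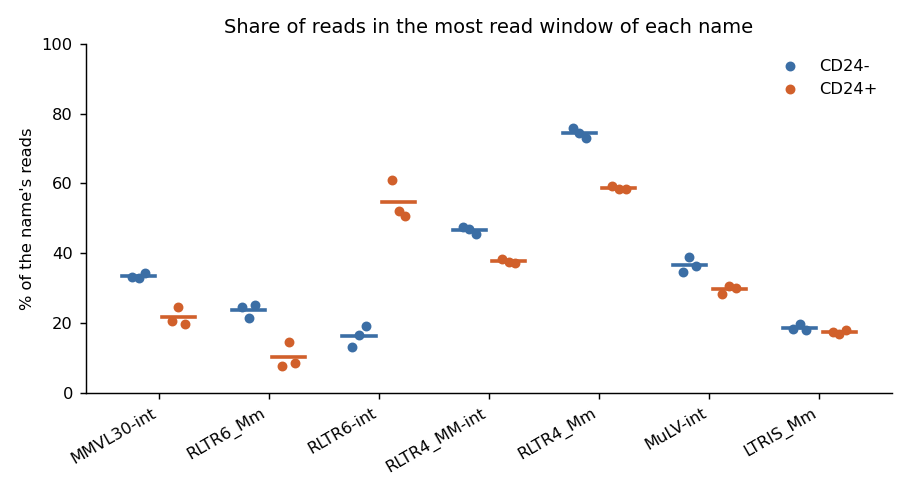
Share of the reads of each of 7 ERV1 names that were placed in the name's most read 10-kb window, in the 3 CD24- (blue) and 3 CD24+ (orange) libraries, with a bar at each mean. The share is smaller in CD24+ cells for MMVL30-int, RLTR6_Mm and the RLTR4 and MuLV names and larger for RLTR6-int, from 16.3% to 54.5%. For LTRIS_Mm it is slightly smaller, with means of 18.6% in CD24- and 17.4% in CD24+ cells.

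Single RLTR4 windows rose. The RLTR4_MM-int window on chromosome 15 from 76390000 had 0.234, 0.563 and 0.248 CPM in CD24- libraries and 2.54, 2.69 and 3.66 CPM in CD24+ libraries. Its log2 fold-change was 3.06 (SE 0.35, edgeR adjusted p = 5.18e-06), and the nearest windows held reads of Adck5. The RLTR4_Mm window on chromosome 11 from 6640000 rose by 1.81 on the log2 scale, and its neighbour from 6650000, led by RLTR4_MM-int, by 0.94 from 16.2 ± 0.0953 CPM to 30.7 ± 6.33 CPM. An RLTR4_MM-int window on chromosome 10 from 41160000 went from 15.6 ± 1.52 CPM to 32.0 ± 5.95 CPM (log2 fold-change 1.05, edgeR adjusted p = 1.85e-05). The MuLV-int window on chromosome 1 from 173410000 rose by 1.36, and the RLTR4_MM-int windows on chromosome 2 from 57060000 and chromosome 5 from 145430000 by 1.37 and 1.23. The last call was lost without CD24+ replicate 3 and with each distinct sequence counted once. In the windows on chromosome 1 and chromosome 2, 91.3% and 85.9% of the reads matched transcripts of the same gene, AC158975.2, in GENCODE M21. The share that matched any M21 transcript was 90.7% on chromosome 11 from 6640000, 46.9% on chromosome 5 and 0% on chromosome 15. None of the windows named in this paragraph overlapped between the groups, but they were chosen by their rise, so this is no further support.

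Reads were also counted along the most read VL30 and RLTR4 elements. Reads placed there can come from other copies, so the counts describe placed reads and not the RNA of 1 copy. The VL30 reads on chromosome 11 lay from 86625195 to 86629747, 4553 nt of mm9 with RLTR6_Mm at both ends and MMVL30-int between them. In 18 stretches of 250 nt with at least 5 CPM in CD24- cells, all 18 had groups that did not overlap. The stretches divide reads already counted in the window above, so they repeat its difference. Their log2 ratios of CD24+ to CD24- means lay between -4.46 and -3.71, with a median of -4.03. The stretches led by RLTR6_Mm had -4.46, -4.07 and -3.75, and those led by MMVL30-int lay between -4.39 and -3.71. The first stretch, within RLTR6_Mm, had 39.0, 35 and 29.2 CPM in the CD24- libraries and 0.884, 2.53 and 1.28 CPM in the CD24+ libraries. The deepest, from 3250 nt within the internal part, had 168, 133 and 131 CPM against 7.52, 11.7 and 8.02 CPM. The stretches were chosen by their level in CD24- cells, the higher group, so these values hold for the chosen stretches alone, 18 of 19. The stretch left out, from 4500 nt, had means of 3.82 CPM in CD24- and 0.271 CPM in CD24+ cells.

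The RLTR4 reads on chromosome 11 lay from 5905653 to 5911496, over 5844 nt. In 21 stretches with at least 5 CPM in CD24- cells the log2 ratio lay between -1.25 and -0.90, with a median of -1.06. None of these overlapped between the groups, and they too divide reads already counted in the windows above. They were also chosen by their level in CD24- cells, so the values hold for the chosen stretches alone, 21 of the 23 that held a counted read. A stretch between those from 5000 and 5500 nt held none. The stretches with reads that were left out, from 5500 and 5750 nt, had log2 ratios of -1.09 and -1.87. The latter rests on means of 0.327 CPM in CD24- and 0.0894 CPM in CD24+ cells. Among the stretches with at least 5 CPM in CD24- cells, none departed from the median of its element by as much as 1 on the log2 scale. The stretches share libraries and are not replicates.

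**Figure D5:**
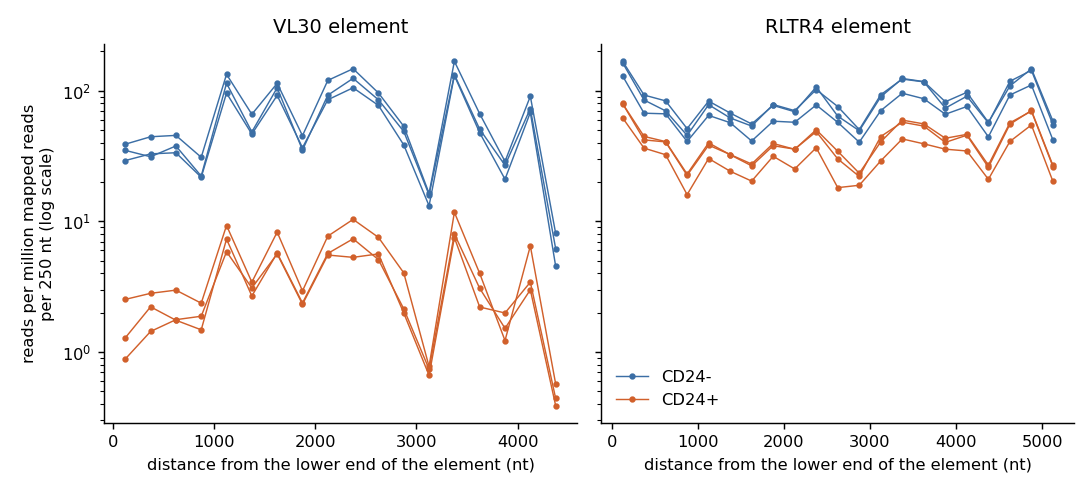
CPM in stretches of 250 nt (log axis) along the most read VL30 element and the most read RLTR4 element, against the distance from the lower end, 1 line per library, for stretches with at least 5 CPM in CD24- cells. In every stretch shown the CD24+ lines (orange) run below the CD24- lines (blue), by a median log2 ratio of -4.03 for VL30 and -1.06 for RLTR4. Stretches below 5 CPM, among them the upper end of RLTR4, are not shown.

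At the level of single sequences, 1254 of the 76022 distinct ERV1 sequences had enough reads to be tested. In CD24+ cells 762 of them fell and 0 rose in the edgeR fit, 60.8% of those tested, beside 2.58% of all 117032 distinct sequences tested, of which 1.26% fell and 1.32% rose. DESeq2 also called 0 ERV1 sequences higher, and 1076 of the 1254 had an unadjusted p below 0.05 in either direction. All 603 tested MMVL30-int sequences fell, as did all 79 of RLTR6_Mm and all 36 of RLTR6-int, and these had been placed in 69 windows. A sequence with enough reads in 1 group alone passes the filter on low counts, so these counts hold for tested sequences and not for all members. For RLTR6-int the tested sequences had a median log2 fold-change of -4.02, beside -1.18 for all its reads. Sequences can overlap and share copies, so they are not replicates. Of the 718 tested VL30 sequences 7 had no read in any CD24+ library. Of 496 tested RLTR4 and MuLV sequences 44 fell. The RLTR4_MM-int and RLTR4_Mm sequences among the 5 most read had log2 fold-changes of -1.02 and -0.94 and did not pass (edgeR adjusted p = 0.0772 and 0.168). None of the 24 tested MER34B-int sequences was called.

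The read shown first above, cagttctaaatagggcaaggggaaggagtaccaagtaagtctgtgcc, had 24.4, 8.58 and 19.4 CPM in the CD24- libraries and 0.995, 2.41 and 1.40 CPM in the CD24+ libraries. Its log2 fold-change was -3.38 (SE 0.42, edgeR adjusted p = 0.000579). The 5 largest decreases among called sequences with a mean of at least 1 CPM were in VL30 names and are shown in order, with AATAAA or TTTATT, where present, in capitals.
RLTR6-int, chr13:62192448-62192494, plus strand: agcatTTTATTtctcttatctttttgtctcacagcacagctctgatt
RLTR6_Mm, chr11:86625726-86625772, plus strand: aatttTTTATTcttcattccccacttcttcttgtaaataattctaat
MMVL30-int, chr13:66487978-66488024, minus strand: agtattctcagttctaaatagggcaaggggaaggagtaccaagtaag
RLTR6_Mm, chr10:55626055-55626101, minus strand: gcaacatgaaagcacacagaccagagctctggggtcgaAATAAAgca
MMVL30-int, chr11:86627270-86627316, plus strand: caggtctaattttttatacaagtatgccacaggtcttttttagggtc

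The first of them had 1.87, 2.81 and 1.41 CPM in the CD24- libraries and 0, 0.0408 and 0 CPM in the CD24+ libraries. For the second the values were 1.87, 4.29 and 1.32 CPM against 0, 0.0816 and 0 CPM. The third, which overlaps the read shown first above, had 1.09, 4.50 and 1.66 CPM against 0, 0.0408 and 0.0389 CPM. The fourth had 1.87, 5.28 and 1.57 CPM against 0, 0.0408 and 0.0778 CPM, and the fifth 2.26, 2.60 and 1.32 CPM against 0.111, 0 and 0.0389 CPM. The CD24+ values rest on 1 to 3 reads, so no fold is given.

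Some VL30 read sequences of 47 nt differ from each other at 1 base alone. Each may be shared by several copies, so a sequence does not identify a copy. Of 11 pairs of tested VL30 sequences that differ at 1 base, 5 had a mean of at least 1 CPM for both sequences, and only these are described. In each of these 5 the rarer sequence, by reads over all libraries, fell by less than the more common one, by 0.50 to 1.95 on the log2 scale. The rarer one was chosen mostly by its CD24- reads, so this is a description and was not tested. The pair shown here has the differing base in capitals, A2G counted from 1 at the 5′ end.
more common, chr13:68353951-68353997, minus strand: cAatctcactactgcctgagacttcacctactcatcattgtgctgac
rarer, chr13:21856507-21856553, minus strand: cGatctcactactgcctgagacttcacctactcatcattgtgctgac

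The rarer sequence made up 25.2%, 28.0% and 22.3% of the reads of this pair in the CD24- libraries and 80%, 48.3% and 57.6% in the CD24+ libraries. The groups did not overlap, on 5 to 33 reads of the pair in a CD24+ library. The pairs A3G and A21G show the same difference in overlapping reads, and A3G also did not overlap, with 18.1% to 22.9% against 39.1% to 63.2%. A21G did overlap, with 16.7% in CD24+ replicate 1. A pair elsewhere in the internal part, T30C, is shown next.
more common, chr11:86626922-86626968, plus strand: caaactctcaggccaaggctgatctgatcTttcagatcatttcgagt
rarer, chr13:87771957-87772003, minus strand: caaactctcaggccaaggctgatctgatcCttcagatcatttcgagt

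In T30C the rarer sequence made up 25%, 23.2% and 20.9% of the pair in the CD24- libraries and 83.3%, 38.5% and 50% in the CD24+ libraries. These shares rest on 6 to 26 reads of the pair in a CD24+ library. The more common sequence lies in the most read VL30 window on chromosome 11. The fifth pair, T19C, overlapped between the groups, with 17.9% to 31.2% in CD24- and 23.5% to 46.2% in CD24+ libraries. Its more common sequence was annotated as MMVL30-int and its rarer one as RLTR6-int.

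Other ERV1 names often lay within transcripts of genes. In 33 of the 114 windows led by names other than VL30, RLTR4 and MuLV, at least 80% of the ERV1 reads matched GENCODE M21 transcripts of 1 gene that was also annotated in the window. Of these windows 5 rose, 2 fell and 26 did not pass, so that 21.2% were called, beside 32.6% of all windows. For 3 of those that rose, the reads annotated to the gene itself rose too, and for the other 2 they did not pass. Of the 2 that fell, the host gene fell for 1 and did not pass for the other. Where the window did not pass, the host gene fell for 9, rose for 1 and did not pass for 16. In all 14 of the 33 host genes were called, 42.4%, beside 44.3% of all annotation names, of which 20.8% were higher and 23.6% lower. The LTR9 window on chromosome 15 from 84100000 lies in Parvb, which codes for a protein of focal adhesions. The window went from 0.124 ± 0.0755 CPM in CD24- to 1.54 ± 0.256 CPM in CD24+ libraries (log2 fold-change 3.49), and Parvb itself had 3.50 ± 0.275 and 37.5 ± 1.79 CPM (log2 fold-change 3.42, edgeR adjusted p = 2.82e-08).

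An RLTR14 window in Tlr3, the gene of a receptor for double-stranded RNA, rose by 0.92 on the log2 scale, and Tlr3 by 1.19. The RLTR23 window in Tpm4, a tropomyosin gene, rose by 0.48 and Tpm4 by 0.44. An RMER5 window in Tnfrsf26, a gene of the TNF receptor superfamily, went from 17.2 ± 2.64 CPM to 6.79 ± 1.23 CPM (log2 fold-change -1.39, edgeR adjusted p = 4.00e-06), and Tnfrsf26 fell by 1.71 on the log2 scale. The MER34B-int reads matched Ywhaz, the gene of a 14-3-3 protein, for 99.9% of those in their window. The window had a log2 fold-change of 0.21 and Ywhaz of 0.09, neither past the threshold, although the window passed without CD24- replicate 3 (edgeR adjusted p = 0.0466). The MER21B windows in Atmin and Fam149b rose by 0.84 and 0.95, while those genes had log2 fold-changes of 0.28 and 0.10 that did not pass. The RLTR14 window in Akr1b3 fell by 0.93 and Akr1b3 had -0.17, not passed. An antisense element cannot be told from its host transcript, since the reads carry no strand.

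Windows of other names outside such genes changed as well. The MuRRS4-int window on chromosome 5 from 23190000 had 19.6, 19.9 and 21.9 CPM in the CD24- libraries and 32.4, 30.2 and 32.5 CPM in the CD24+ libraries (log2 fold-change 0.63, edgeR adjusted p = 0.000198). A MURVY-int window on chromosome 2 from 27350000, in a stretch with reads of Wdr5, had 1, 1 and 2 reads in CD24- libraries and 14, 23 and 45 reads in CD24+ libraries. Of 15 windows led by LTRIS_Mm 10 fell and 0 rose at an adjusted p below 0.05 in edgeR, with 12 at an unadjusted p below 0.05 and a median of -0.86. Of 7 windows led by MMERGLN-int 3 fell, with a median of -0.44. Of all windows tested 32.6% were called, and 18.9% fell.

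Genes known to act in the silencing of retroviral elements were also counted, and their part in the VL30 difference was not tested. Their log2 fold-changes lay between -0.67 and 0.41. Of a list of 22, 21 were tested, 1 rose, 8 fell and 12 did not pass, with a median log2 fold-change of -0.11. The called share of 42.9% was near that of all annotation names, 44.3%, of which 20.8% were higher and 23.6% lower. Trim28, the gene of the KAP1 corepressor, had 340 ± 24.5 CPM in CD24- and 316 ± 18.7 CPM in CD24+ libraries (log2 fold-change -0.10, edgeR adjusted p = 0.349). Setdb1, which codes for a histone H3 lysine methyltransferase, fell by 0.51 on the log2 scale (edgeR adjusted p = 0.00150), and Dnmt1, the gene of the maintenance DNA methyltransferase, by 0.37 (edgeR adjusted p = 0.0127). Zfp809, whose zinc finger protein binds the primer binding site of murine leukemia virus, had 6.08 ± 1.52 and 8.06 ± 0.198 CPM (log2 fold-change 0.41, edgeR adjusted p = 0.105). The gene called higher was Cbx5 (log2 fold-change 0.32, edgeR adjusted p = 0.0135).

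Cd24a, the gene of the sorted marker, had 7.54 ± 2.09 CPM in CD24- and 55.7 ± 5.39 CPM in CD24+ libraries (log2 fold-change 2.88, edgeR adjusted p = 6.65e-07). Of 10 mammary epithelial markers 4 were tested: Krt8, Krt18 and Krt19 fell and Cldn3 rose, and the summed level was 1357 to 1515 CPM in CD24- libraries and 549 to 636 CPM in CD24+ libraries. Epcam and Cdh1 had fewer than 1 CPM in every library. Of 5 mesenchymal markers Pdgfra, Pdgfrb, Col1a1 and Col1a2 rose and Vim did not pass. Their sums were 2669 to 3279 CPM and 2894 to 3606 CPM, nearly all from Vim, with means of 2871 and 3162 CPM. Pdgfrb had 3.56 ± 0.936 CPM in CD24- and 48.3 ± 11.8 CPM in CD24+ libraries, and Pdgfra 4.62 ± 1.60 and 8.15 ± 2.03 CPM. Col1a1, Col1a2 and Cldn3 had means of at most 2.32 CPM in each group. Of all annotation names 44.3% were called, 20.8% higher and 23.6% lower. The 4 leukocyte markers summed to 0.0778 CPM or less, and of 4 endothelial markers only Cdh5 was tested, which fell from 1.37 ± 0.281 CPM to 0.177 ± 0.135 CPM. The part of these marker differences in the VL30 result was not tested.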

How the data were processed

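The authors sequenced messenger RNA of the 6 libraries in unstranded single-end reads, trimmed the reads to 47 nt, collapsed identical ones, mapped each distinct sequence by exact match and gave it 1 location and 1 annotation. The build is mm9 per the submitters' processing notes, and the aligner is not given in the sources used here. The deposited values are raw counts of each sequence in each library, neither normalized nor pooled. An exact match leaves out reads that differ from the reference, so elements that vary in FVB/N can lose reads.

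The deposited counts were summed per annotation name, per window of 10 kb by annotation class, and per distinct sequence. Each level was fitted over all its features in edgeR 4.0.16 (R 4.3.3) with the quasi-likelihood F test, filterByExpr, library sizes set to all mapped reads without TMM, and Benjamini-Hochberg adjustment with a threshold of 0.05. Reads without any annotation (16.9% to 20.2% of a library) formed no name but stayed in the library sizes. Single values per library were compared by two-sided exact permutation tests. The fits were tested on simulated data. ERV1 reads were matched by exact sequence to GENCODE M21 transcripts for gene names only, not for coordinates.

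Named were the 10 most read ERV1 names and windows, the largest changes among those called, set families (VL30, RLTR4, MuLV, MMERGLN, MuRRS, MURVY), the 5 most read sequences and listed genes. RLTR1, LTR45, windows in host genes, VL30 windows that rose or did not pass, base-pair variants, values without 1 or 2 windows (the refits of MMVL30-int and RLTR4_MM-int included), the RLTR4_MM-int windows on chromosome 11 from 6650000 and chromosome 10 from 41160000, and the MuRRS4-int and MURVY-int windows were chosen after their values were seen. The members and lists were chosen with earlier results of these data known. Alternatives were TMM, DESeq2 1.42.0, other filters, windows and scalings, distinct sequences, a fold minimum, a replicate block and each library left out. Libraries of 1 group differed by more than sampling noise. The chi-square over its degrees of freedom was 2.04 to 11.9 for pairs of CD24- libraries and 11.5 to 43.9 for pairs of CD24+ libraries.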

Additional observations from a re-analysis of the deposited data

How the results depend on the processing

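The 7 main results gave 90 values under the alternatives, and 86 kept their direction and, for counts, stayed within 1.5 times. The number of ERV1 names called was 14, and 5 with each distinct sequence counted once, 5 with an absolute log2 fold-change of at least 1, and 9 to 15 with each library left out, where 9 was without CD24- replicate 2. The number of ERV1 sequences called was 762, 477 with at least 1 CPM in 3 libraries, and 707 to 1021 with each library left out. ERV1 windows called ranged from 170 to 194 with each library left out, and MMVL30-int from -3.49 to -3.25. For single names, windows and read sequences, 51 results gave 687 values, of which 631 were unchanged in direction and call, 44 lost a call, 6 gained one and 6 reversed. With each distinct sequence counted once MER34B-int became -0.0047, its window on chromosome 15 -0.0097, MuLV-int 0.21 and MMERGLN-int 0.11. With each library left out MMERGLN-int ranged from -0.15 to 0.014, above 0 without CD24+ replicate 1, and MuRRS-int from -0.14 to 0.31, below 0 without CD24+ replicate 3. The causes were not tested. Counting distinct sequences can saturate for abundant elements, and whether it did so here was not tested. Libraries with the same replicate number had correlations of deviations from their group means of 0.01, -0.29 and -0.30. Unlike numbers were not compared, so these values cannot decide whether replicate numbers pair the samples. With the replicate block 10 names, 173 windows and 723 sequences were called, and MMVL30-int was -3.37. An analysis of reads that match the genome at 1 place was not run, since no genome of the build was used here. At 9046025 mapped reads CD24+ replicate 1 is the shallowest library, and names under 1 CPM rest on few reads.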
